A study of Mus musculus with 6 samples.

Results

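The genes described here are 51 core proteins of the spliceosome, chosen by symbol from the deposited table of mouse germinal vesicle (GV) oocytes. All 51 of the listed symbols were found among the 25353 genes of the table, and all 51 passed the filter on low values, a normalized read count of at least 1 in 3 or more libraries, which 18762 genes passed. They were divided into 7 proteins of the Sm ring, 4 of U1, 13 of U2, 12 of U4/U6.U5, 9 of the Cdc5l/Prp19 complex and related factors, and 6 helicases and factors of the catalytic steps. The study compared 3 libraries labelled KO with 3 labelled WT, with 5 oocytes in each pool, from C57BL/6J mice. The labels disagree on the KO group: the genotype field and the collection protocol give Mfn1-/-, whereas the series title and design give Mfn2-/-. They also give the age of all 6 samples in 2 ways, as 8 weeks in the protocol and as P1 in the age field. No label names a promoter or Cre line, and nothing says that the pools of a group came from different animals, so p-values measure the spread between these pools, which may be in part technical. Each library is a bulk pool, in which fewer cells and less RNA per cell cannot be told apart.

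The spliceosome removes introns from pre-mRNA and is assembled anew on each intron from small nuclear ribonucleoproteins (snRNPs), which are small RNAs with bound proteins. U1 recognises the 5' splice site and U2 the branch point, and the U4/U6.U5 tri-snRNP then joins, after which the Prp19 complex, built around Cdc5l and Prpf19, and a set of helicases drive activation, catalysis and release. Growing oocytes transcribe and splice a large store of messenger RNA for later use, and GV oocytes are those still arrested in prophase of meiosis I with an intact nucleus.

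The libraries held 6583404, 6626841 and 7615374 reads in KO replicates 1 to 3, against 6450191, 7624575 and 7992598 in WT replicates 1 to 3. Mfn2 had 5.25, 5.28 and 4.50 normalized reads in the libraries labelled KO, against 25.5, 38.1 and 32.3 in WT, a log2 fold change of -2.44 with SE 0.38 and limma adjusted p = 0.00487. Mfn1 had 398, 382 and 379 normalized reads in libraries labelled KO, against 363, 298.5 and 360.1 in WT, a log2 difference of 0.19 (SE 0.13, limma adjusted p = 0.482). The low gene is thus the one named in the series title and not the one in the genotype field, and the groups are called by their library names, KO and WT, below. All 15 oocyte markers were above 0 in every library, with sums of 156788 to 206417 normalized reads in KO and 202227 to 241473 in WT. For the 13 granulosa and theca markers in the table the sums were 529 to 701 in KO and 641 to 2660 in WT, with overlap. WT replicate 1 was highest, through Hsd3b1 and Cyp11a1, and Amh and Foxl2 were each at 0 in 2 KO and 2 WT libraries. The 6 immune markers summed to 12.7 to 17.9 in KO and 24.2 to 85.4 in WT, with Lyz2, C1qa, Adgre1 and Cd74 at 0 in all KO libraries. Adgre1 was also at 0 in 2 WT libraries, Lyz2 and Cd74 in 1 each, and C1qa in 0. The 5 stromal markers summed to 7.19 to 11.6 in KO and 16.6 to 73.2 in WT, with Col1a1, Col1a2 and Col3a1 at 0 in all KO libraries. Col1a2 and Col3a1 were also at 0 in 2 WT libraries each, and Col1a1 in 1. The 4 endothelial markers overlapped, at 168 to 256 in KO and 192 to 246 in WT. Cdh5 was at 0 in all KO libraries and in 2 WT libraries. Immune and stromal sums were thus lower in every KO library than in every WT library, and their part in the results below was not tested.

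Of the 51 members, 3 were higher in KO and 0 were lower by limma on log2(normalized count + 1), at an adjusted p under 0.05 over all tested genes. The 3 were Cdc5l, the scaffold of the Prp19 complex, and 2 U2 proteins, Sf3b6 and Snrpb2. Among all 18762 tested genes 1.87% were higher and 1.41% lower, 3.28% in all, and 5.88% of the members were called. The members were chosen with earlier results of these data known, so their share follows in part from that choice. The tested genes were also not matched to the members for level. EdgeR on recovered reads, which tested 50 members and left out Ddx23 for its low counts, called the same 3 higher and 0 lower, against 3.45% and 2.58% of its tested genes. DESeq2 on the same 50 called 3 higher and 2 lower, the 2 being Snrnp70 and Sf3b2, against 3.72% and 3.13%. At an unadjusted limma p under 0.05 there were 6 members higher and 5 lower, set against 9.16% and 8.83% of all tested genes. The members' median log2 fold change was -0.10, against -0.01 for all tested genes, with 18 members above 0 and 33 below. Over all tested genes 9128 were above 0 and 9634 below. All 3 KO libraries lay above all 3 WT libraries for 7 members and below them for 7, against 11.5% and 11.7% of tested genes. These 14 members are 27.5% of the 51, and the background of such separation in either direction was 23.2%.

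**Figure D1:**
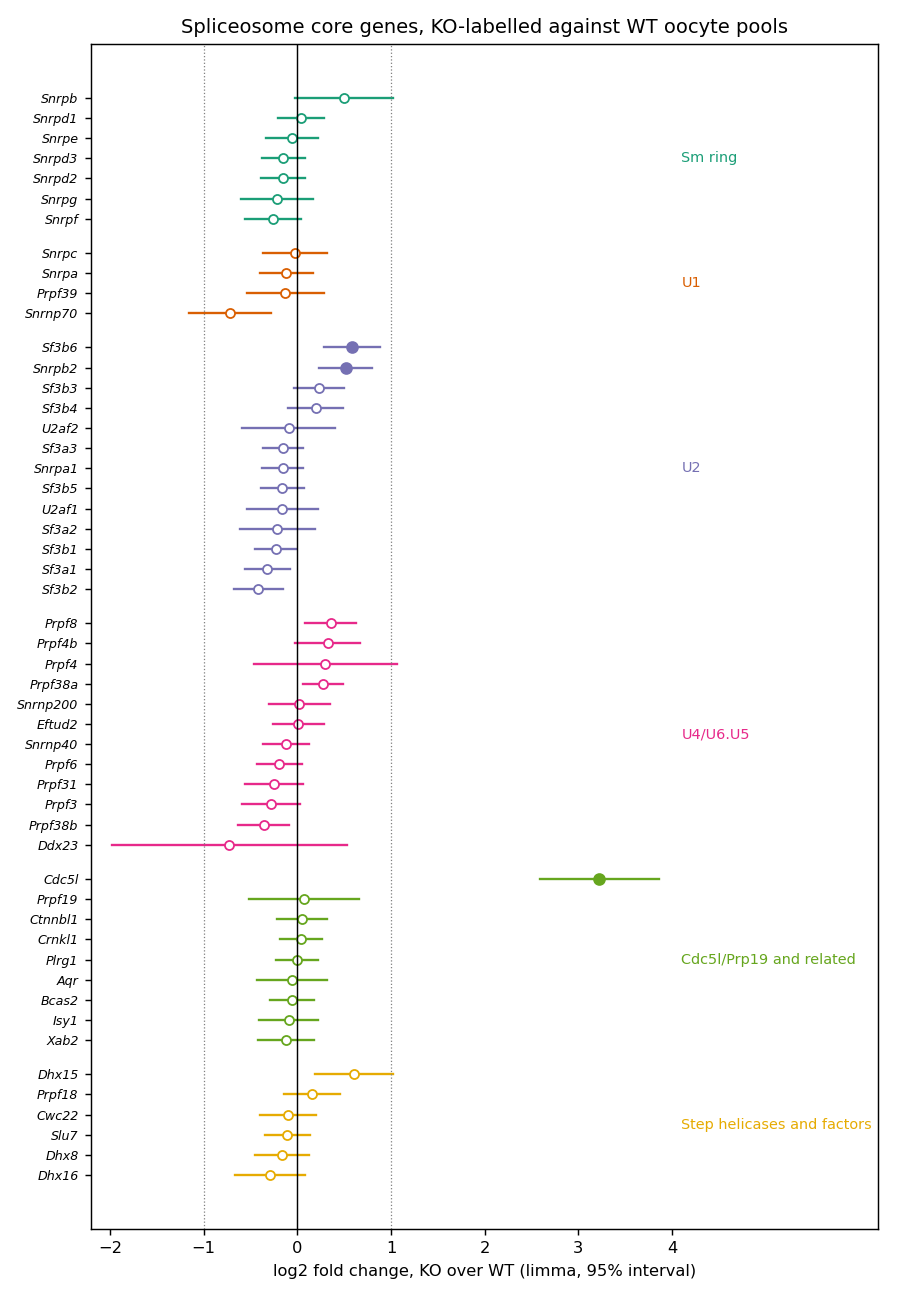
Log2 fold change of each of the 51 members, KO over WT, with the 95% interval from limma; classes are coloured, filled circles passed the adjusted threshold and dotted lines mark a 2-fold change either way. Cdc5l stands at 3.22, and the other 50 members lie between -0.72 and 0.61.

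For most members the data bounded the difference to within a 2-fold change, which leaves room for smaller ones. The 95% interval of the log2 fold change lay within a 2-fold change either way for 45 of the 51 members (88.2%), against 52.1% of all tested genes. The exceptions were Cdc5l, Snrpb, Snrnp70, Prpf4, Ddx23 and Dhx15. Sf3b6 and Snrpb2, both called higher, were thus among the 45. The plot of fold changes with their intervals shows this as a column of short bars near 0, with Cdc5l far to the right. The members' median standard error was 0.14, against 0.28 for all tested genes, whose median level of 43.2 normalized reads was lower than the members' 362. The 48 members that missed the threshold ranged from -0.72 (Ddx23) to 0.61 (Dhx15). A p that misses the threshold does not show that the values did not differ, and the intervals below give what the data allow.

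Cdc5l (chr17:45391892-45433707 in GRCm38, minus strand) encodes a Myb-like DNA- and RNA-binding protein that forms the core of the Prp19 complex and is needed for catalytic activation of the spliceosome. Its normalized read counts were 275, 254 and 168 in KO, against 14.4, 40.0 and 22.2 in WT. Every KO library was above every WT library, and the lowest KO value, in replicate 3, was far above the highest WT value, in replicate 2. In recovered reads these were 262, 240 and 187 in KO and 13, 43 and 24 in WT, so the WT level rests on few reads. The mean was 232 ± 56.6 in KO and 25.5 ± 13.1 in WT (SD, n = 3 each), a log2 fold change of 3.22 (SE 0.30, 95% interval 2.59 to 3.86, limma adjusted p = 0.000147), or 9.33-fold on the log2(value + 1) scale. It had the smallest p-value of all 18762 tested genes and the fifth largest positive fold change. It was called higher in all 17 alternative analyses, with log2 fold changes of 2.89 to 3.59. The lowest came without WT replicate 1, where the Cdc5l count was smallest. The highest came without WT replicate 2, which had the largest WT count. WT replicate 1 also had the highest sums of granulosa, stromal and immune markers, and their part in the difference was not tested.

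Part of the Cdc5l message is identical or nearly so in copies elsewhere in the genome. Of 119 windows of 75 bases along its longest coding transcript, 64 (53.8%) matched another gene with at most 1 mismatch. The matches lay mainly in 10 copies of Cdc5l on chromosome 10 without introns, 9 of them in the table, between positions 118238372 and 118354105. The 8 copies of the same coding length as Cdc5l, 2409 bases, differed from it at 55 to 58 bases (identity 97.6% to 97.7%). Against the copy Gm32717, 18 of 94 coding windows were identical, 30 held 1 differing base and 46 held more. A 75-base read from an identical window cannot be placed by its own letters. The reads are paired, so its mate may place it, which was not tested. A stretch of the coding sequence with a single difference and one with 6 are shown to let the share of reads that can be placed be judged. Sequences are the mouse reference (GENCODE release M21, GRCm38), 5' to 3', and capitals mark the differing bases.
Cdc5l coding bases 1 to 75: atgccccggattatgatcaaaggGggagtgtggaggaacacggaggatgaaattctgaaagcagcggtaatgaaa
Gm32717 coding bases 1 to 75: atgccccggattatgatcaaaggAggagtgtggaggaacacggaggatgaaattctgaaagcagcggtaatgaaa
Cdc5l coding bases 1426 to 1500: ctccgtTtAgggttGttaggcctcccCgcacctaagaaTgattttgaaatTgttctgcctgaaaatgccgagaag
Gm32717 coding bases 1426 to 1500: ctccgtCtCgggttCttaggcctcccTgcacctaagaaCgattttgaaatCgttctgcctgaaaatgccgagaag

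The deposited table lists the copies separately. The 9 copies summed to 22.1, 44.4 and 45.9 normalized reads in KO, against 4.44, 7.44 and 4.62 in WT, so they too were higher in each KO library than in each WT library, at a much lower level than Cdc5l. The highest value of a single copy in any library was 14.4. Gm9045 and Gm9049 had the same reads in every library, 4, 7 and 9 in KO and 0 in each WT library, and both passed the threshold (limma adjusted p = 0.0181 each). Gm9030 passed as well, with 1, 11 and 16 reads in KO and 0 in each WT library (limma adjusted p = 0.0465). The pair Gm9040 and Gm9044 also shared every count, so a read may have been counted at more than 1 copy, and the direction of single copies is uncertain. With the copies' counts added to Cdc5l its log2 fold change was 3.16, close to the 3.22 of Cdc5l alone. The plot of Cdc5l beside the summed copies shows the copies as the small bar in each of the 6 libraries.

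**Figure D2:**
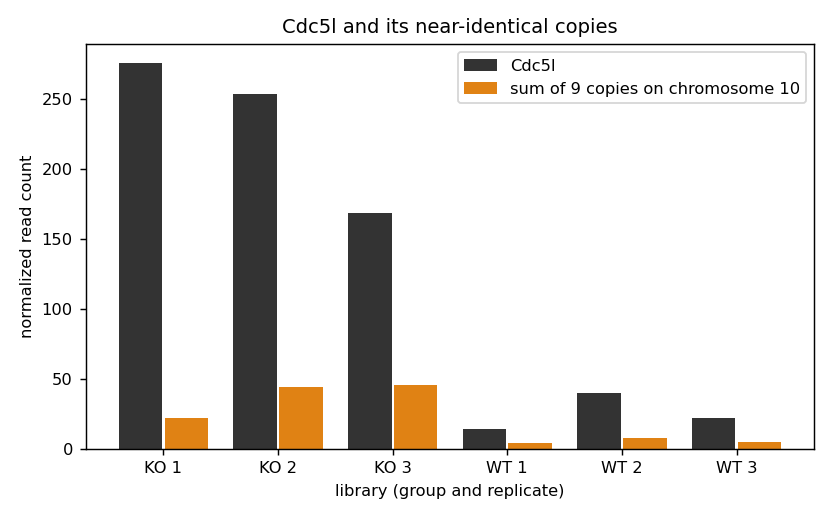
Normalized read count of Cdc5l (dark bars) and of the 9 listed copies on chromosome 10 added together (orange bars) in each library. Cdc5l is at 168 to 275 in KO and 14.4 to 40.0 in WT, and the copies sum to at most 45.9 in any library.

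None of the genes around Cdc5l passed the threshold. Of 14 other genes within 500000 bases that were tested by limma 0 were called, against 3.28% of all tested genes. An unadjusted limma p under 0.05 was reached by 3 of them, 1 higher and 2 lower. Of all tested genes 9.16% passed this as higher and 8.83% as lower. EdgeR and DESeq2 called 0 of the 10 and 9 they tested. Slc29a1, Capn11, Gm9104 and 1600014C23Rik had at most 5.54 normalized reads in any library. With 14 genes, 0 calls cannot set this region apart from all tested genes. The nearest of the 14 is B230354K17Rik, a long non-coding RNA that starts from the other strand. Its GENCODE M21 model shares 3.33% of the exon bases of Cdc5l. In the deposited table it starts at 45433852, past the end of Cdc5l at 45433707. B230354K17Rik had 15.8, 19.0 and 21.6 normalized reads in KO, against 5.54, 13.9 and 6.46 in WT, with each KO library above each WT library. Its log2 difference of 1.12 (SE 0.43) missed the threshold (limma adjusted p = 0.166). The library kit keeps no strand, but by the deposited positions B230354K17Rik and Cdc5l share no bases.

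The proteins that work beside Cdc5l showed no called difference. Prpf19, the ubiquitin ligase that gives the complex its name, had 37.8, 40.1 and 36.9 normalized reads in KO, against 49.9, 33.5 and 28.6 in WT, and the groups overlapped (log2 difference 0.07, 95% interval -0.51 to 0.66). Plrg1, a WD-repeat subunit, had 1296, 1569 and 1499.97 in KO, against 1411, 1453 and 1503 in WT. Its log2 interval ran from -0.23 to 0.22. Bcas2, a small subunit that binds Cdc5l, had 667, 759 and 710.4 in KO, against 742, 686 and 796 in WT, with an interval of -0.30 to 0.18. In both genes the groups overlapped. The plot of single libraries sets these 3 partners below the 3 called members.

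**Figure D3:**
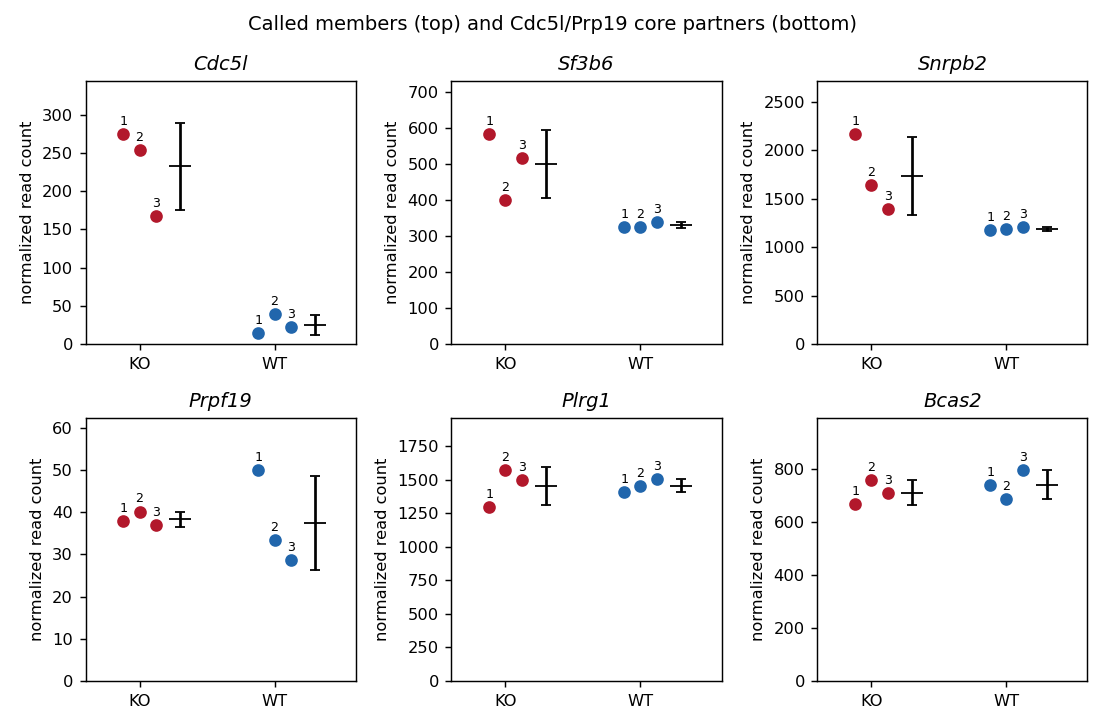
Normalized read count in each library (digits are replicate numbers) with the mean and SD at the right of each group, n = 3 each, for the 3 called members in the upper row and 3 partners of Cdc5l in the lower row. In the upper row no WT library reaches a KO library, and in the lower row the groups overlap.

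Among the factors that join the Prp19 complex, the largest negative differences were small. Xab2, a scaffold of the intron-binding complex, had 178, 199.7 and 188 normalized reads in KO, against 203, 209 and 202 in WT. All 3 KO libraries were just below the WT ones, and the log2 difference was -0.12 (SE 0.14, 95% interval -0.42 to 0.18, limma adjusted p = 0.716). Isy1, which acts at the catalytic centre, had 262, 195 and 227 in KO, against 244, 221 and 260.4 in WT, with overlap and a difference of -0.09. Crnkl1, Ctnnbl1 and Aqr, a helix-repeat scaffold, a Cdc5l-binding protein and a helicase-like intron-binding protein, had log2 differences of 0.04, 0.05 and -0.05, and their groups overlapped. The 9 genes of the class had a median log2 fold change of -0.00, with 1 higher and 0 lower by limma, edgeR and DESeq2 alike and 0 lower at an unadjusted limma p under 0.05.

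U2 held the other called members. Sf3b6 (chr12:4817544-4827659, plus strand) encodes the small SF3B subunit that lies by the branch point adenosine. It had 584, 399 and 516 normalized reads in KO, against 325, 324.5 and 339.8 in WT. The KO libraries were all higher and spread more widely than the WT ones. The means were 499.9 ± 93.4 in KO and 329.8 ± 8.71 in WT (SD, n = 3 each), a log2 fold change of 0.58 (SE 0.14) or 1.50-fold, with limma adjusted p = 0.0351. The call held in 12 of 17 alternatives. With 1 library left out it held only without KO replicate 2, and leaving out KO replicate 1, KO replicate 3 or any WT replicate gave adjusted p-values of 0.0539 to 0.116.

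Snrpb2 (chr2:143063039-143072853, plus strand) encodes U2 B'', which binds a stem-loop of U2 RNA together with Snrpa1. It had 2172, 1643 and 1391 normalized reads in KO, against 1174, 1190.3 and 1213 in WT. KO replicate 1 was far above the rest, and KO replicate 3 was nearest to WT, without overlap. The means were 1735 ± 399 in KO and 1193 ± 19.6 in WT (SD, n = 3 each), a log2 fold change of 0.52 (SE 0.13) or 1.43-fold, with limma adjusted p = 0.0473. The call held in 9 of 17 alternatives, and with 1 library left out only without KO replicate 3. Leaving out any of the other 5 libraries gave adjusted p-values of 0.0618 to 0.140. The call was also lost with the GC and length trend removed (log2 fold change 0.41, limma adjusted p = 0.0981). A replicate block (0.0546) and a pseudocount of 0.5 (0.0529) lost it as well. Without KO replicate 1 the log2 fold change was 0.34. Its partner Snrpa1 stood at a mean of 1625 ± 112 in KO and 1811 ± 122 in WT (SD, n = 3 each), a difference of -0.16 that missed the threshold (limma adjusted p = 0.468).

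Promoters of the 3 called members are given because they let the sequences just before these genes be compared. They are the 250 bases before the RefSeq gene start on GRCm38.p6, written 5' to 3' on the gene's strand, and capitals mark matches to 1 of 2 motifs. The first is an ETS core, CCGGAAG, also searched as its reverse complement, and the second a cAMP response element, TGACGTCA, which reads the same on both strands and shares no bases with the first. The motifs were chosen after these promoters had been read.
Cdc5l, chr17:45433708-45433957, minus strand: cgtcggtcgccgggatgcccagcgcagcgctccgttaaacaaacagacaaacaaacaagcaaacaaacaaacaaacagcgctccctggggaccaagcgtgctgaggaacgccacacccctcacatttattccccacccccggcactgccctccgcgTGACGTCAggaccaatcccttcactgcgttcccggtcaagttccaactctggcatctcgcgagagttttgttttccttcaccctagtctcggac
Sf3b6, chr12:4817358-4817607, plus strand: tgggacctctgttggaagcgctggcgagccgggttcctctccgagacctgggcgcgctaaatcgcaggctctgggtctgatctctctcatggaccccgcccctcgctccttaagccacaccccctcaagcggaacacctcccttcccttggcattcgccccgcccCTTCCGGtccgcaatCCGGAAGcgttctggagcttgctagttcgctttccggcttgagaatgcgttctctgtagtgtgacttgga
Snrpb2, chr2:143062819-143063068, plus strand: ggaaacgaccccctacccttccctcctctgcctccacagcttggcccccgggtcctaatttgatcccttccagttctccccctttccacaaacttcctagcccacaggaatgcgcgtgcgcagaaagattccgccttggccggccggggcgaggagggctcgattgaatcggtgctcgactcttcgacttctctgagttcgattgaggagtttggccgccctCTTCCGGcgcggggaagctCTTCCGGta

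Sf3b6 and Snrpb2 each held 2 ETS cores. Those of Sf3b6 were at 85 to 79 and 70 to 64 bases before its RefSeq start. Those of Snrpb2 were at 28 to 22 and 9 to 3 bases before its RefSeq start. Cdc5l held none, and had the response element at 94 to 87 bases before its start. The promoters of Sf3b6 and Snrpb2 end at 4817607 and 143063068, past the deposited gene starts of 4817544 and 143063039. The ETS cores of Snrpb2 thus lie inside the gene as deposited. RefSeq promoters were matched for 41 of the 51 members. The ETS core was in 17 of them (41.5%), against 14.5% of 10926 tested protein-coding genes and 7.83% of 27025 genes with a promoter of this length. Most of the 17, among them Sf3a1, Sf3b2, Prpf3 and Xab2, were not called. The response element was in 4 of 41 (9.76%), namely Cdc5l, Snrpa, Snrpg and Xab2, against 2.90% and 1.77%. The 3 promoters read before the motifs were chosen are counted in these shares, which thus follow in part from that choice. The compared genes were not matched to the members for level. A match is a description of the letters only.

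The other 11 U2 genes had no difference called by limma. Sf3b2, an SF3B subunit that contacts the RNA beside the branch site, had 549, 755 and 679.8 normalized reads in KO, against 887, 859 and 883 in WT, and every KO library was lower. Its log2 difference of -0.42 (SE 0.12, 95% interval -0.68 to -0.15) had a limma adjusted p of 0.0761 and a DESeq2 adjusted p of 0.0421. Sf3a1, the largest SF3A subunit, had 530.5, 616 and 638 in KO, against 703, 739 and 777 in WT, again without overlap (log2 difference -0.32, SE 0.12, limma adjusted p = 0.148). Sf3b1, the protein that clamps the branch helix, averaged 1989 ± 142 in KO and 2331 ± 127 in WT (SD, n = 3 each), also without overlap (-0.23, limma adjusted p = 0.246). Sf3b3 was the only uncalled U2 gene with all KO libraries above WT (0.23, limma adjusted p = 0.358). Sf3a2, Sf3a3, Sf3b4, Sf3b5, Snrpa1 and the 3' splice site factors U2af1 and U2af2 overlapped, with log2 differences of -0.21 to 0.20. U2 thus had 2 genes higher and 0 lower by limma or edgeR (1 by DESeq2, and 3 at an unadjusted limma p under 0.05). Its 13 genes had a median of -0.16, with 4 differences above 0 and 9 below. Over all tested genes 9128 were above 0 and 9634 below.

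In U1 all 4 log2 differences were below 0, as were 9634 of the 18762 over all tested genes. None of the 4 passed the limma test, with 1 at an unadjusted p under 0.05. Snrnp70, the U1 protein that binds the first stem-loop of U1 RNA, had 487, 499.7 and 272 normalized reads in KO, against 766, 775 and 497 in WT. KO replicate 2 just passed WT replicate 3, so the groups overlapped, and KO replicate 3 was lowest. Its log2 difference was -0.72 (SE 0.21, 95% interval -1.16 to -0.28) with limma adjusted p = 0.0690, edgeR adjusted p = 0.0607 and DESeq2 adjusted p = 0.0204. In limma it passed without KO replicate 1 (adjusted p = 0.0236) and with no filter on low values (0.0322), and without KO replicate 3 its log2 difference was -0.43 (0.213). Prpf39, whose yeast counterpart is a U1 subunit, had 168, 170.1 and 189 in KO, against 175, 148 and 271 in WT, with overlap and a difference of -0.13. Snrpa and Snrpc, the other U1-specific proteins, differed by -0.12 and -0.02, with intervals of -0.40 to 0.16 and -0.36 to 0.32.

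The Sm proteins form the ring on which U1, U2, U4 and U5 RNAs are held, and none of the 7 was called by limma, none had an unadjusted p under 0.05, and edgeR and DESeq2 called 0. Snrpb had the largest positive difference, with 155, 176 and 245 normalized reads in KO, against 172, 168 and 82.2 in WT. The groups overlapped, KO replicate 3 being highest and WT replicate 3 lowest, and the log2 difference was 0.50 (SE 0.25, 95% interval -0.02 to 1.02). Without WT replicate 3 the difference was 0.15, and without KO replicate 3 it was 0.31. Snrpd1, the most abundant member per length, had 3392, 2872 and 2569 in KO, against 2637, 3084 and 2836 in WT, a difference of 0.04 (95% interval -0.20 to 0.28). Snrpf had 315, 291 and 243 in KO, against 315, 382 and 316 in WT (-0.26, SE 0.14), and Snrpg 172, 126 and 125 in KO, against 136, 189.7 and 165 in WT (-0.22, SE 0.18). Both overlapped between groups. Most windows of Snrpf, 87.5%, also match another gene, chiefly Ccdc38, with which it shares 65.9% of its exon bases, so its counts are uncertain. Of all 51 members 28 share at least 1 window of 75 bases with another gene, and 10 share over 20%, among them U2af1 (66.7%) and Sf3b4 (59.5%), whose counts are uncertain in the same way. Snrpd2, Snrpd3 and Snrpe had differences of -0.15, -0.15 and -0.06.

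In U4/U6.U5, 0 of 12 genes were called by limma, edgeR or DESeq2, and 3 had an unadjusted limma p under 0.05. Prpf8, the large protein at the heart of the catalytic centre, had 417, 393 and 406 normalized reads in KO, against 313, 359.9 and 282 in WT, and all KO libraries were higher. Its log2 difference was 0.36 (SE 0.13, 95% interval 0.08 to 0.63, limma adjusted p = 0.150). Prpf38a, which enters with the tri-snRNP, was also higher in every KO library, at 1949 ± 135 in KO and 1606 ± 55.0 in WT (SD, n = 3 each), a difference of 0.28 with limma adjusted p = 0.149. Its relative Prpf38b went the other way, with 311, 317 and 317 in KO, against 369, 388 and 459.8 in WT, and no overlap (-0.36, SE 0.13, limma adjusted p = 0.141). Prpf4b, a kinase of the tri-snRNP, had 211, 207 and 273 in KO, against 171, 162 and 219 in WT, with overlap (0.33, SE 0.16, limma adjusted p = 0.316). Ddx23, the helicase that exchanges U1 for U6 at the 5' splice site, was read only a few times per library, at 2.10, 7.40 and 4.50 in KO, against 3.33, 16.7 and 7.39 in WT. Its interval, -1.98 to 0.53, was the widest of the members. Prpf3 and Prpf6, proteins of the U4/U6 di-snRNP and of its bridge to U5, lay below WT in every KO library by -0.28 and -0.19 on the log2 scale and missed the threshold. The U5 proteins Snrnp200, Eftud2 and Snrnp40 differed by 0.02, 0.01 and -0.12, and Prpf4 and Prpf31 by 0.30 and -0.25, all with overlap.

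Of the 6 helicases and factors of the catalytic steps, limma, edgeR and DESeq2 called none, and 1 had an unadjusted limma p under 0.05. That gene was Dhx15, the helicase that takes spent spliceosomes apart, with 139.7, 104 and 112 normalized reads in KO, against 67.6, 89.3 and 74.8 in WT. Its KO libraries were all higher, and the log2 difference was 0.61 (SE 0.19, 95% interval 0.19 to 1.02, limma adjusted p = 0.1004). Prpf18, which acts before exon ligation, had 255, 239 and 219 in KO, against 199.6, 206 and 232 in WT (0.16, SE 0.14). Dhx16, the helicase that opens the way to the first catalytic step, had 118, 176 and 172 in KO, against 199.6, 197 and 167 in WT (-0.29, SE 0.18). Dhx8, which releases the spliced message, had 244, 254 and 310.2 in KO, against 287, 315 and 296 in WT (-0.16, SE 0.14). The groups overlapped in these 3 genes. Slu7, a factor of exon ligation, and Cwc22, which brings Eif4a3 of the exon junction complex to the spliceosome, differed by -0.11 and -0.10.

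Levels per length spanned a wide range within the machinery. Per kilobase of the longest coding transcript, Snrpd1 had 3432 normalized reads in KO and 3324 in WT, followed in KO by Snrpe with 1486 in KO and 1531 in WT, and Snrpa1 with 1302 in KO and 1451 in WT. The lowest were Ddx23 with 1.46 in KO and 2.87 in WT, Prpf19 with 6.34 in KO and 6.19 in WT, and Prpf4 with 6.72 in KO and 5.06 in WT. Cdc5l stood at 76.7 in KO, where it ranked 35 of 51, and at 8.43 in WT, where it ranked 48. The plot of levels per length shows it as the point farthest from the diagonal. Prpf19 and Cdc5l, which act in the same complex, were thus both among the 4 lowest members in WT.

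**Figure D4:**
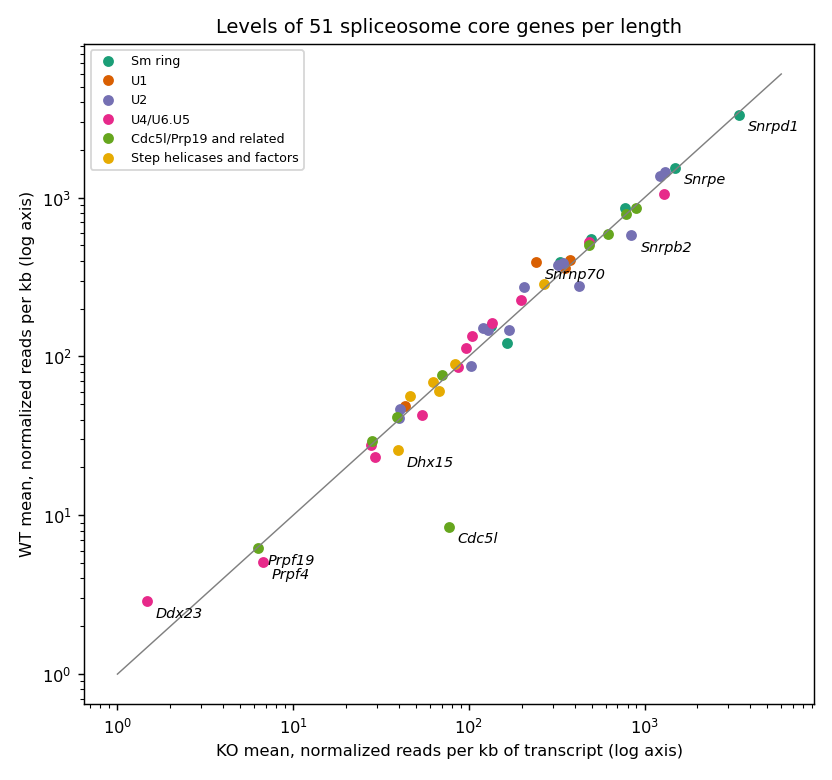
Mean normalized reads per kilobase of transcript in KO (x axis, log scale) and WT (y axis, log scale) for the 51 members, coloured by class, with a line of equal levels. Cdc5l lies at 76.7 in KO and 8.43 in WT, well to the right of the line.

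The members as a whole took a near-constant share of each library, 0.515%, 0.509% and 0.513% of reads in KO and 0.490%, 0.513% and 0.505% in WT. KO replicates 1 to 3 were the lowest of the 6 libraries for 19, 4 and 8 members, and WT replicates 1 to 3 for 9, 5 and 6. They were the highest for 11, 2 and 7 members in KO, against 7, 10 and 14 in WT. The median deviation of the members from the WT mean was -0.15, -0.05 and -0.04 on the log2 scale in KO replicates 1 to 3, against -0.05, -0.00 and 0.02 in WT replicates 1 to 3. By class, the 13 U2 genes had medians of -0.17, -0.11 and -0.08 in KO, all below the WT values of -0.05, -0.00 and 0.04. In the Sm ring the KO libraries differed among themselves, with 0.09, -0.15 and -0.24 in KO, against -0.06, 0.12 and -0.03 in WT, and KO replicate 3 was lowest for 5 of the 7 genes. The plot of class medians by library shows that U2 was the only class of the 6 in which KO and WT medians did not overlap, a description with no test. Of single tested genes 23.2% separated in either direction, a share that does not carry over to class medians. The called U2 genes, Sf3b6 and Snrpb2, were higher in KO.

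**Figure D5:**
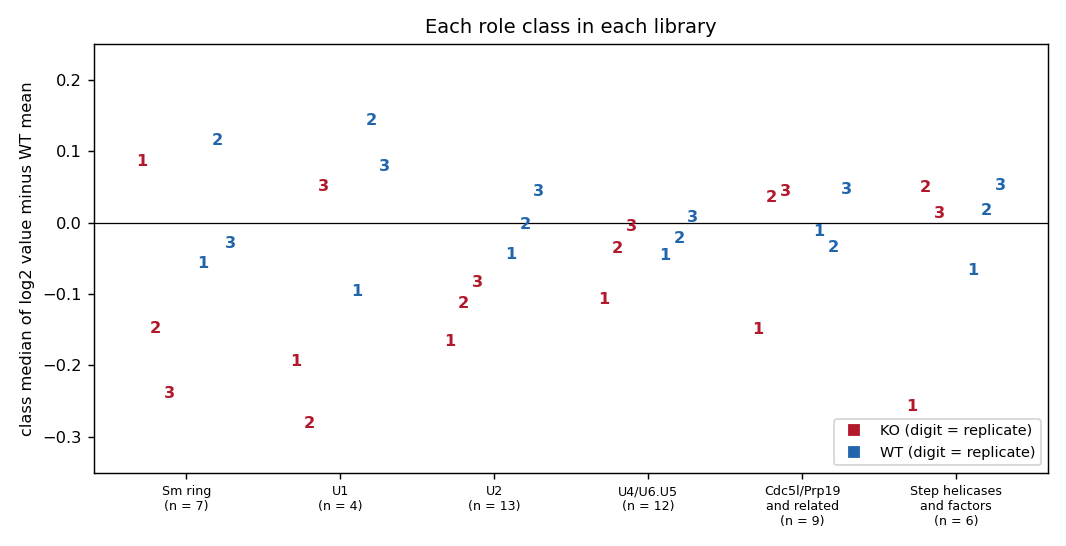
Median over each class of a gene's log2 value minus its WT mean, in KO libraries (red digits) and WT libraries (blue digits), the digit being the replicate. KO values of U2 lie between -0.17 and -0.08, below all WT values, and the other classes overlap.

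Other splicing genes were compared in the same fit. Of 38 further spliceosome proteins 0 were higher by limma (1 by edgeR, 0 by DESeq2, and 2 at an unadjusted limma p under 0.05), and 3 were lower: Snw1, a catalytic-stage scaffold (fell by 0.46 on the log2 scale, limma adjusted p = 0.0320), Ddx42, a U2-associated helicase (fell by 0.66, limma adjusted p = 0.0323), and Ppie, a cyclophilin of the activated spliceosome (fell by 0.57, limma adjusted p = 0.0476). This list was also chosen with earlier results of these data known, and 7.89% of it was lower, against 1.41% of all tested genes. The calls held in 11, 12 and 8 of 17 alternatives for Snw1, Ddx42 and Ppie. Each lost its call when any 1 WT library or KO replicate 2 was left out, and Snw1 and Ppie also without KO replicate 3. Ppie further lost it with total-count scaling (limma adjusted p = 0.0707), with the GC and length trend removed (0.0813) and with a pseudocount of 0.5 (0.0529). Of 10 LSm proteins, 1 rose and 1 fell. Most of them form rings on U6 RNA or on decaying messages, and Lsm10 and Lsm11 belong to the U7 particle of histone pre-mRNA processing. Lsm1, a subunit of the cytoplasmic decay ring, had 902, 902 and 1400.2 normalized reads in KO, against 429, 545 and 458 in WT. Every KO library was higher, and its log2 fold change of 1.14 (SE 0.16, limma adjusted p = 0.00220) was called in all 17 alternatives. Lsm4, a subunit of the U6 and decay rings, fell by 0.69 (limma adjusted p = 0.0264). Its call held in 13 of 17 alternatives and was lost when any 1 WT library was left out and with the GC and length trend removed (limma adjusted p = 0.0630).

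The remaining lists held no call by limma, and edgeR called only Tgs1 in them, and DESeq2 Srrm2, Pdcd7, Tgs1 and Phax. Of 15 SR and SR-related proteins, many of them regulators that bind exonic enhancers, 4 were higher and 2 lower at an unadjusted limma p under 0.05. Of all tested genes 9.16% passed this as higher and 8.83% as lower. The 15 were led by Srrm2 (-0.48, limma adjusted p = 0.0590) and Tra2b (0.49, limma adjusted p = 0.0832), and their median log2 fold change was 0.28. By the same measure and against the same shares, 2 of 9 exon junction genes were higher and 1 lower, led by Rnps1 (0.46, limma adjusted p = 0.0883) and Acin1 (-0.69, limma adjusted p = 0.111). Of 9 minor-spliceosome genes 0 were higher and 2 lower, Pdcd7 (-0.33, limma adjusted p = 0.0975) and Zrsr2 (-0.38, limma adjusted p = 0.178). Of 15 tested genes of snRNP assembly 5 were higher and 0 lower, against the same 9.16% and 8.83%. They were led by Tgs1, which further methylates the cap of snRNAs (1.20, limma adjusted p = 0.0569), and Phax, an snRNA export adaptor (0.41, limma adjusted p = 0.0724). With 1 library left out the log2 fold change of Tgs1 ran from 0.84 without KO replicate 3 to 1.50 without KO replicate 1, where it passed the threshold (limma adjusted p = 0.0155).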

How the data were processed

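RNA was measured in 6 mouse oocyte libraries made by Smart-Seq2 and Nextera XT, which keep no strand, from 75-base read pairs, per the labels' protocols. The deposited table holds a normalized read count per gene and library, a signal that the authors made by dividing reads by a size factor, per the file headers. Per the submitters' processing notes, which give no roles or versions, the builds were mm10 and GRCm38, and STAR, cutadapt, FastQC, DESeq2 and DESeq were used, and the annotation is not given in the sources used here. A single read was worth 0.899 to 1.11 in each column, and division by that step gave whole numbers within 0.1 for 100% of the values. The limit set by a count of 0 is 3 reads (0.375 to 0.465 CPM), for counting error only.

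The main test was limma-trend (limma 3.58.1 in R 4.3.3) on log2(value + 1) of 18762 genes, two-sided and adjusted by Benjamini-Hochberg at 0.05, and fold changes on this scale understate those of low genes. It called 351 genes higher and 264 lower. EdgeR 4.0.16 (quasi-likelihood, TMM) and DESeq2 1.42.0 on recovered reads (451 higher and 338 lower, and 449 higher and 378 lower), other pseudocounts, filters and scalings, a replicate block, a GC and length trend, added copies and each library left out were alternatives. The script was tested on simulated counts. Shared windows of 75 bases were found with minimap2 2.31-r1302 against GENCODE M21, whose symbols matched 95.5% of genes. Table ends lay 1 base past GENCODE for 95.5% of matched genes, so the base before is printed. Promoters are from RefSeq.

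The members and lists were chosen with earlier results of these data known. Library values are given for each called member, for the 2 most positive and 2 most negative differences of each class and for the Cdc5l/Prp19 core, and from each other list up to 4 called genes, or the 2 of smallest p, are named.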

Additional observations from a re-analysis of the deposited data

How the results depend on the processing

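Cdc5l kept its call in all 17 alternatives, and the members' median log2 fold change stayed between -0.13 and -0.04. The count of members lower in KO, 0 by limma with the chosen settings, was 1 with no filter, 2 with DESeq2, 1 with the GC and length trend removed and 1 with the replicate block. The replicate numbers did not pair the samples: same-numbered libraries had correlations of -0.14, -0.07 and -0.08 over 11309 genes, and no library correlated best with its own number. With the block, 2 members were higher and 1, Snrnp70, lower (limma adjusted p = 0.00986), Snrpb2, Snw1, Ddx42 and Ppie missed the threshold (0.0546 to 0.0647), and 246 of all tested genes were higher and 175 lower. With 1 library left out, members higher numbered 1 to 2, members lower 0 to 1, all genes higher 71 to 459 and all genes lower 41 to 430. Each such fit also has a smaller group. The effect of the library left out and that of the smaller group cannot be told apart in these counts. Of calls over all genes 57.1% were higher, against 73.5% with total-count scaling and 46.2% with the GC and length trend removed. Small differences changed sign: Plrg1 was 0.053 with total-count and 0.0061 with TMM scaling, and Bcas2 0.00062 with total-count scaling. With 1 library left out, Prpf19 ranged from -0.094 to 0.30, Plrg1 from -0.062 to 0.076, Snrpd1 from -0.067 to 0.13, Prpf39 from -0.31 to 0.12 and Isy1 from -0.20 to 0.012. The causes of these shifts were not tested. With 3 pools a group, a gene at the WT level of Cdc5l rests on 13 to 43 reads.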
